A study of Homo sapiens with 26 samples.

Results

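TXNIP and the arrestin-domain genes ARRDC1, ARRDC2, ARRDC3 and ARRDC4 were followed in MCF10A cells given epidermal growth factor (EGF), dexamethasone (DEX) or both. The members were the probesets whose platform gene symbol is exactly 1 of these 5 names, which gave 105 of the 844005 probesets of the array and 5 of the 16600 genes that could be tested. The family was chosen by its log2 intensities on these same arrays, TXNIP being known to stand lower with EGF and higher with DEX, so the levels and differences of the 5 genes are a description and carry no p-value. All 5 genes had enough bright probesets to be measured, with 15 of 16 probesets above the background for TXNIP, 28 of 31 for ARRDC1, 20 of 21 for ARRDC2, 15 of 15 for ARRDC3 and 19 of 22 for ARRDC4.

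The alpha-arrestins are cytoplasmic adaptors built on the arrestin fold. Most carry short proline-rich motifs through which they recruit ubiquitin ligases of the NEDD4 family to membrane proteins, and the marked proteins are then taken up and sorted for degradation. TXNIP binds and restrains thioredoxin, a reducing protein, and removes glucose transporters from the cell surface. Its gene is a standard target of MondoA and its partner MLX, factors that sense glucose phosphates, and ARRDC4, a close relative of TXNIP, answers to the same factors. ARRDC3 steers membrane proteins, among them the integrin ITGB4 in breast cancer cells, towards degradation, and ARRDC1 drives the budding of small vesicles at the cell surface together with TSG101.

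MCF10A is a non-tumorigenic line established from human breast epithelium. The cells were starved overnight before treatment, and their usual medium holds EGF and hydrocortisone, a natural glucocorticoid. EGF (10 ng per ml) acts on the receptor EGFR, and DEX (100 nM), a synthetic glucocorticoid, on the glucocorticoid receptor. The 26 arrays fall into EGF+DEX, DEX and EGF, with 8 arrays each, and untreated cells at 0 min, with 2 arrays. For each treatment the times of 20, 40 and 60 min were run in duplicate and those of 120 and 240 min on a lone array, which makes 16 groups. The 2 untreated arrays serve as the baseline for all times of EGF and of DEX, so these comparisons share their controls, and drift of the untreated cells over the hours cannot be told apart from the treatment. The labels tell replicates apart by number only, so standard errors and p-values measure only the spread between these samples, and the lone arrays at 120 and 240 min are assumed to vary like the others.

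Between 61.1% and 62.7% of probesets were brighter on each array than the median probeset with no gene name (4.65 on the log2 scale). Replicate arrays correlated at 0.9768 to 0.9865 over the values of the tested genes, each summarised from its bright probesets. Response genes of each agent served as a check of the labels. Of immediate response genes listed for EGF, 10 of 10 rose with EGF, EGR3 most (2.20), and 7 of 10 glucocorticoid targets rose with DEX, RGS2 most (2.64), all in limma's test described below. The lists are not exclusive to 1 agent, since 3 of 10 glucocorticoid targets also rose with EGF, DUSP1 most (0.82), and of the 10 EGF genes 1 rose with DEX (FOS, 1.16) and 4 fell. Of 11 tested markers of basal mammary epithelium, 11 were above the stricter background (5.97), against 5 of 8 luminal, 2 of 7 leukocyte and endothelial and 3 of 7 fibroblast markers. Among the markers, limma's F-test over the 5 times, described below, called TP63 lower with DEX (adjusted p = 0.00142) and DCN higher (adjusted p = 0.00536). The largest difference at a single time was -1.28 for TP63 and 1.26 for DCN. Their mean differences over the times were -0.51 ± 0.12 (SE) and 0.33 ± 0.13. The mean level of the basal markers ran between 10.14 and 10.44 with EGF+DEX, 10.11 and 10.46 with DEX, 10.24 and 10.47 with EGF, and 10.45 and 10.48 in untreated cells. That of the fibroblast markers ran between 6.19 and 6.35 with EGF+DEX, 6.13 and 6.48 with DEX, 6.05 and 6.18 with EGF, and 6.14 and 6.25 in untreated cells, and the part of either list in the results was not tested. In RNA from a whole culture, fewer cells of a type and less RNA per cell cannot be told apart.

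The start regions of TXNIP, ARRDC4 and ARRDC3 are shown because these members were called in at least 1 of the comparisons described below. The stretches come from RefSeq (GRCh38.p14), lie before an annotated transcription start and are written on the strand of the gene. All 5 genes matched by symbol, with 8 annotated start windows among them. Capitals mark the motifs named in the next paragraph. The TXNIP stretch is chr1:145996610-145996729, minus strand, from base -150 to base -31 before the first of its 2 starts. The ARRDC4 stretch is chr15:97960473-97960592, plus strand, from base -230 to base -111. The ARRDC3 stretch is chr5:91380113-91380142, minus strand, from base -45 to base -16 of the second of its 2 starts, which lies within the gene as counted from the first.
TXNIP: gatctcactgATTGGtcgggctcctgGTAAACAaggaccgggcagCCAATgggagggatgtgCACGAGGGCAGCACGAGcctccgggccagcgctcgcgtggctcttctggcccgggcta
ARRDC4: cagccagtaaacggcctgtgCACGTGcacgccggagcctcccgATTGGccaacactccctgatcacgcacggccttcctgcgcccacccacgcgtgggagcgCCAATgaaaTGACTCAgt
ARRDC3: ttgacagcccggcactTGTTTACcacggcg

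Each motif was searched on both strands in 35116 RefSeq windows of 300 bases, and the motifs were picked with these promoters in view. TXNIP carries a pair of E-box-like motifs of the kind that MondoA and its relatives bind, written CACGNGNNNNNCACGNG, at -88 to -72. This pair was found in 20 windows, or 0.057% of all, and in no other window of the 5 genes. A forkhead motif, GTAAACA, lies at -124 to -118 of the first TXNIP start and on the opposite strand at -29 to -23 of the second ARRDC3 start. Such a motif is held by 3.42% of all windows. The window of the second TXNIP start held no match of the motifs searched. ARRDC4 has a perfect E-box, CACGTG, at -210 to -205 (7.26% of windows) and an AP-1 motif, TGANTCA, at -119 to -113 (7.71%), which ARRDC2 also has at -121 to -115 of its first start. CCAAT boxes were found in 5 of the 8 windows and in 34.6% of all. The full glucocorticoid response element, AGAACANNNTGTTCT, was in 0 of the 8 windows and in 0.00285% of all, and its recognition unit, AGAACA, was in 0 of the 8 and in 14.8% of all. These are matches of letters within 300 bases, and no matches in the 8 windows overlap. As letters, the unit is part of the full element, and the perfect E-box can serve as either arm of the paired motif.

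**Figure D1:**
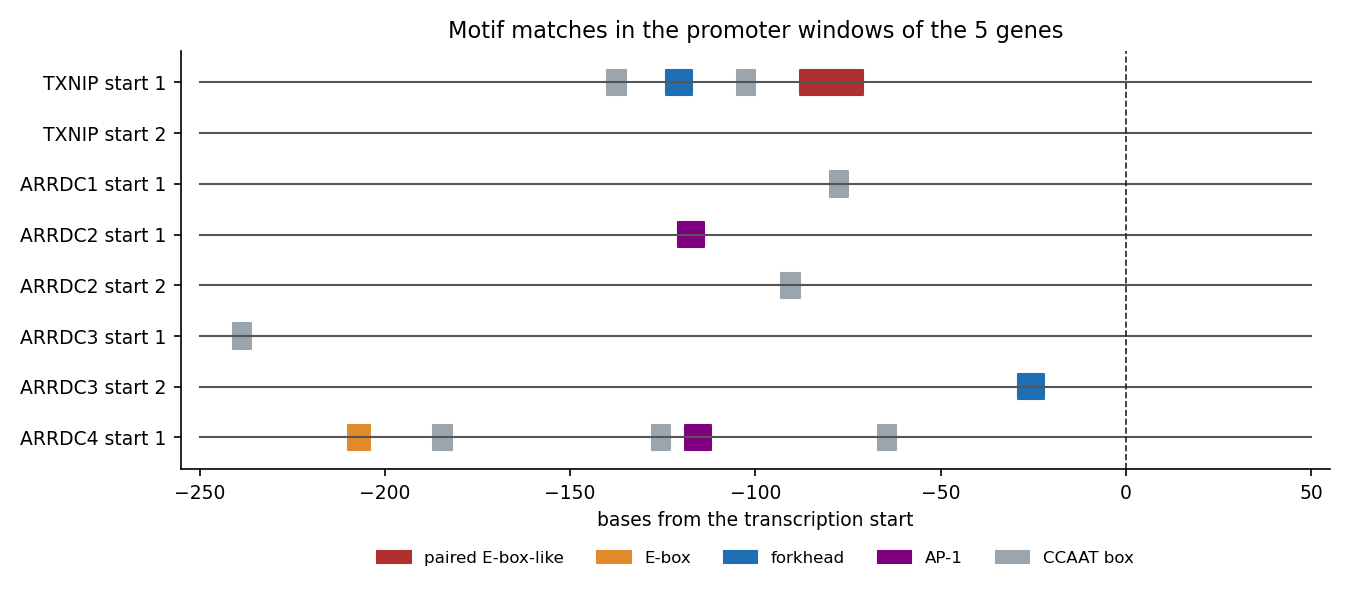
Motif matches (coloured bars) in the 8 RefSeq start windows of the 5 genes, by distance in bases from the transcription start (dashed line). The paired E-box-like motif stands only in the first TXNIP window, at -88 to -72, and forkhead motifs in TXNIP at -124 to -118 and in the second ARRDC3 window at -29 to -23.

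TXNIP stood higher in every culture that received DEX and lower in every culture that received EGF alone. With EGF+DEX its log2 intensity was 11.07 and 10.90 at 20 min, 11.98 and 11.75 at 40 min, 11.85 and 11.77 at 60 min, 11.89 at 120 min and 11.50 at 240 min. With DEX it was 10.74 and 10.89 at 20 min, 11.59 and 11.65 at 40 min, 11.84 and 11.77 at 60 min, 11.62 at 120 min and 11.47 at 240 min. With EGF it was 10.14 and 9.86 at 20 min, 10.18 and 10.18 at 40 min, 10.07 and 9.65 at 60 min, 9.36 at 120 min and 9.35 at 240 min, and in untreated cells 10.30 and 10.23. All 8 DEX arrays lay above both untreated arrays, all 8 EGF arrays lay below both, and the 8 EGF+DEX arrays lay above every EGF array with no overlap.

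The difference of TXNIP with DEX was already 0.55 ± 0.14 (SE) on the log2 scale at 20 min, was greatest at 60 min (1.54 ± 0.14, a 2.91-fold excess) and was still 1.20 ± 0.18 at 240 min, for a mean of 1.20 ± 0.12 over the 5 times. The EGF difference took another course. It was -0.26 ± 0.14 at 20 min and -0.08 ± 0.14 at 40 min, within or near the spread of replicates, and -0.91 ± 0.18 at 120 min and -0.92 ± 0.18 at 240 min, for a mean of -0.51 ± 0.12. The largest gap between 2 replicates was 0.42, at 60 min of EGF. The low late values therefore rest on 1 array each.

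With both agents TXNIP kept the level of DEX alone. EGF+DEX exceeded EGF by 0.98 ± 0.14 at 20 min, 1.68 ± 0.14 at 40 min, 1.95 ± 0.14 at 60 min, 2.54 ± 0.20 at 120 min and 2.15 ± 0.20 at 240 min, with a mean of 1.86 ± 0.08, or 3.63-fold. Against DEX the differences were between 0.00 and 0.27 at the single times, with a mean of 0.14 ± 0.08, and the arrays overlapped. The deficit of TXNIP with EGF alone was not seen in the presence of DEX. The EGF+DEX level exceeded untreated cells by 1.35 ± 0.12, while the 2 single differences add up to 0.69, so that the combination stood 0.66 ± 0.14 above their sum. That excess was 0.43 at 20 min, 0.33 at 40 min, 0.41 at 60 min, 1.18 at 120 min and 0.95 at 240 min.

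**Figure D2:**
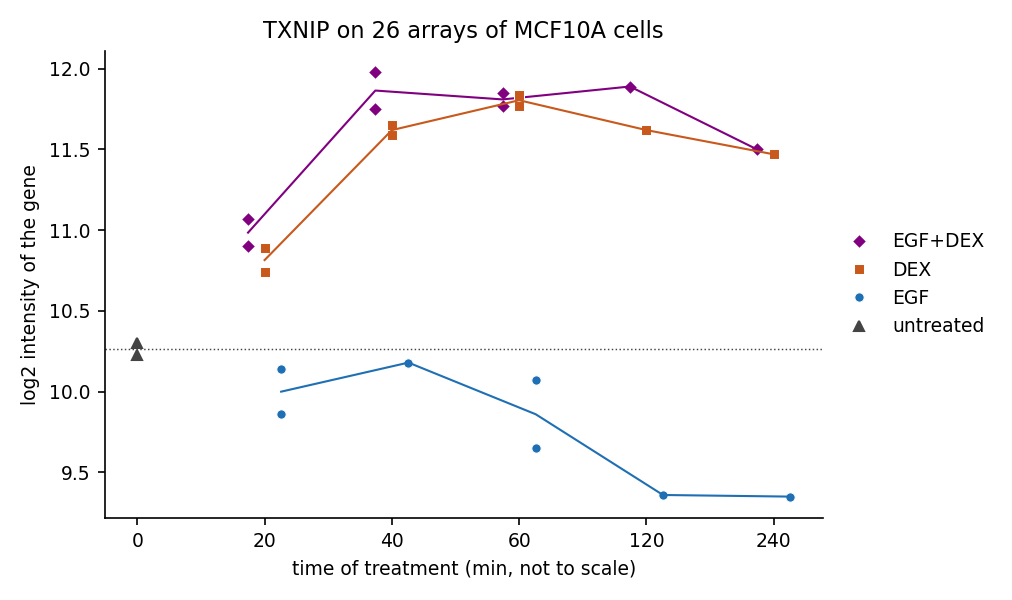
Log2 intensity of TXNIP on each of the 26 arrays by time of treatment, with EGF+DEX, DEX, EGF and untreated cells as separate symbols, lines joining the group means and a dotted line at the untreated mean (10.26). DEX and EGF+DEX run together between 10.74 and 11.98, and EGF lies between 9.35 and 10.18, below both untreated arrays.

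Ordered by group mean, TXNIP had its highest level at 120 min of EGF+DEX (11.89) and its lowest at 240 min of EGF (9.35), a span of 2.54 against a replicate standard deviation of 0.14. The 8 groups of DEX and EGF+DEX from 40 min on lay between 11.47 and 11.89. Neighbours in that block do not differ beyond the replicate spread, apart from a gap of 0.18 below DEX at 60 min. The first clear steps downwards came at the 20 min groups of EGF+DEX (10.98) and DEX (10.82) and then at untreated cells (10.26). The 120 and 240 min EGF groups closed the order, 0.51 below EGF at 60 min.

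The parts of the TXNIP transcript moved together. All 15 bright probesets had a positive difference in EGF+DEX against EGF (1.25 to 2.61) and in DEX against untreated cells (0.83 to 1.99), and all 15 a negative one in EGF against untreated cells (-1.08 to -0.11). The single dim probeset, with a mean of 2.92, was lower with DEX than in untreated cells (-0.35), opposite to the rest.

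ARRDC3 was the gene of the family whose level with both agents stood below that with either agent alone. Its log2 intensity with EGF+DEX was 8.72 and 8.60 at 20 min, 8.16 and 8.02 at 40 min, 7.47 and 7.67 at 60 min, 7.61 at 120 min and 7.99 at 240 min. With DEX it was 8.74 and 8.38 at 20 min, 8.87 and 8.69 at 40 min, 8.22 and 8.40 at 60 min, 8.65 at 120 min and 9.37 at 240 min. With EGF it was 8.71 and 8.24 at 20 min, 8.46 and 8.76 at 40 min, 8.51 and 8.37 at 60 min, 8.65 at 120 min and 8.28 at 240 min, and in untreated cells 8.96 and 8.88. The 6 EGF+DEX arrays from 40 min on, at 7.47 to 8.16, lay below all 8 DEX arrays (8.22 to 9.37) and all 8 EGF arrays (8.24 to 8.76), whereas the 20 min arrays lay among them.

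The difference of ARRDC3 in EGF+DEX from untreated cells was -0.26 ± 0.17 (SE) at 20 min, -0.83 ± 0.17 at 40 min, -1.35 ± 0.17 at 60 min, -1.31 ± 0.20 at 120 min and -0.93 ± 0.20 at 240 min. At 60 min its level stood 2.55-fold below that of untreated cells. EGF+DEX differed from DEX by a mean of -0.75 ± 0.09, and from EGF by -0.51 ± 0.09. The gap to DEX widened with time and was 0.11 ± 0.17 at 20 min, -0.74 ± 0.17 at 60 min and -1.37 ± 0.23 at 240 min. The last value rests on 1 array of each treatment, with DEX at 9.37 and EGF+DEX at 7.99. EGF+DEX itself was higher there than at 60 min (mean 7.57). Without the 240 min DEX array the mean difference from DEX was -0.59. The gap to EGF was widest at 120 min (-1.04 ± 0.23) and was -0.29 ± 0.23 at 240 min.

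The single agents moved ARRDC3 less. All 8 EGF arrays lay below both untreated arrays, with a mean difference of -0.43 ± 0.13. With DEX 7 of 8 arrays lay below, with differences of -0.14 to -0.61 up to 120 min, but the lone array at 240 min lay above (0.45 ± 0.20). The mean DEX difference was -0.19 ± 0.13, and it was -0.35 without that array. EGF+DEX departed by -0.32 ± 0.16 from the sum of the single differences, by 0.56 at 20 min and by -0.76 to -0.26 from 40 min on.

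The low level of ARRDC3 with both agents ran over the whole transcript. All 15 probesets had a negative difference in EGF+DEX against DEX (-0.88 to -0.27) and against EGF (-0.83 to -0.19). Against untreated cells 12 of 15 were lower with DEX and 13 of 15 with EGF. Probesets 2866712 and 2866727 stood slightly above untreated cells with DEX (0.07 and 0.01), and 2866727 also with EGF (0.15). Probeset 2866714 stood farthest above untreated cells, by 0.95 with DEX and 0.89 with EGF. Its values ran between 7.93 and 9.06 with EGF+DEX, 8.38 and 9.69 with DEX and 8.12 and 9.62 with EGF, and its 2 untreated values, 6.91 and 9.33, lay farther apart than any of these ranges.

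ARRDC4, a close relative of TXNIP, stood on the other side of untreated cells with DEX. Its log2 intensity with EGF+DEX was 6.28 and 6.24 at 20 min, 6.18 and 6.44 at 40 min, 6.27 and 6.24 at 60 min, 5.76 at 120 min and 5.61 at 240 min. With DEX it was 6.28 and 6.29 at 20 min, 6.52 and 6.24 at 40 min, 6.05 and 6.04 at 60 min, 5.97 at 120 min and 5.54 at 240 min. With EGF it was 6.52 and 6.42 at 20 min, 6.60 and 6.63 at 40 min, 6.80 and 6.50 at 60 min, 6.79 at 120 min and 6.14 at 240 min, and in untreated cells 6.55 and 6.50. With DEX 7 of 8 arrays lay below both untreated arrays, while the EGF arrays lay on both sides.

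The DEX difference of ARRDC4 was -0.25 ± 0.13 at 20 min, -0.15 ± 0.13 at 40 min, -0.48 ± 0.13 at 60 min, -0.56 ± 0.16 at 120 min and -0.99 ± 0.16 at 240 min, with a mean of -0.48 ± 0.10. Without the lone 240 min array the mean was -0.36, and with a stricter brightness filter it was -0.31. The values at 120 and 240 min with DEX and EGF+DEX, 5.54 to 5.97, lay near or below the stricter background (5.97). EGF alone left the mean at 0.01 ± 0.10, though at 240 min it was -0.39 ± 0.16. EGF+DEX differed from EGF by a mean of -0.49 ± 0.07 and from DEX by 0.00 ± 0.07. The combination differed from the sum of the single differences by -0.01 ± 0.13. Of the 19 bright probesets 14 had the sign of the gene with DEX and 16 in EGF+DEX against EGF, so the transcript moved less evenly than TXNIP or ARRDC3.

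ARRDC2, a less studied member of the family, stood higher with DEX. Its log2 intensity with EGF+DEX was 6.35 and 6.53 at 20 min, 6.59 and 6.59 at 40 min, 6.83 and 6.53 at 60 min, 7.00 at 120 min and 6.50 at 240 min. With DEX it was 6.38 and 6.51 at 20 min, 6.66 and 6.89 at 40 min, 6.87 and 7.03 at 60 min, 7.03 at 120 min and 7.03 at 240 min. With EGF it was 6.25 and 6.37 at 20 min, 6.45 and 5.91 at 40 min, 6.50 and 6.21 at 60 min, 6.35 at 120 min and 6.38 at 240 min, and in untreated cells 6.48 and 6.20. With DEX 7 of 8 arrays lay above both untreated arrays, and with EGF 1 lay above and 1 below.

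The DEX difference of ARRDC2 was 0.10 ± 0.17 at 20 min and 0.69 ± 0.21 at both 120 and 240 min, with a mean of 0.51 ± 0.14. EGF made a mean difference of -0.02 ± 0.14. EGF+DEX differed from EGF by a mean of 0.33 ± 0.09 and from DEX by -0.20 ± 0.09, most at 240 min (-0.53 ± 0.25). The replicate standard deviation was 0.19, the widest of the 5 genes, and the largest gap was 0.54 at 40 min of EGF. Of the 20 bright probesets 16 were higher with DEX than in untreated cells, between -0.52 and 1.84.

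ARRDC1 was the flat member. Its 26 values lay between 7.64 and 7.97, with 7.76 to 7.97 for EGF+DEX, 7.76 to 7.97 for DEX, 7.64 to 7.87 for EGF, and 7.70 and 7.86 for untreated cells, and the treatments overlapped throughout. Its group means spanned 0.28. The mean difference was 0.10 ± 0.06 for EGF+DEX against EGF, -0.01 ± 0.06 for EGF+DEX against DEX, 0.08 ± 0.09 for DEX and -0.03 ± 0.09 for EGF against untreated cells. Its 28 bright probesets went both ways in each comparison.

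**Figure D3:**
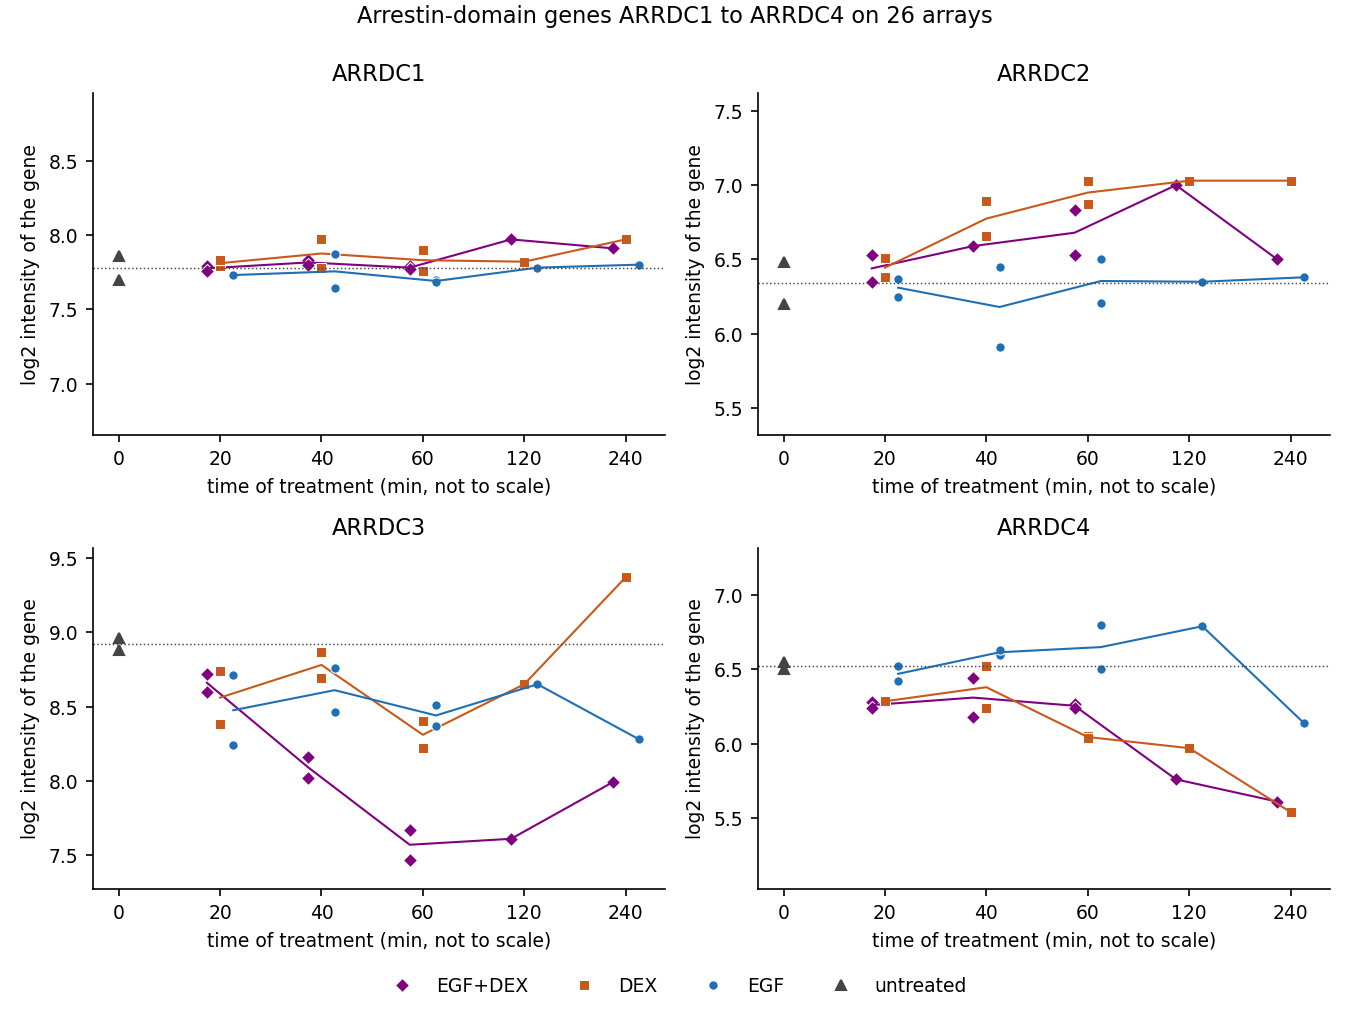
Log2 intensity of ARRDC1, ARRDC2, ARRDC3 and ARRDC4 on each of the 26 arrays by time of treatment, each panel spanning the same range, with lines joining the group means and a dotted line at the untreated mean. ARRDC3 with EGF+DEX separates downwards from 40 min on (7.47 to 8.16), ARRDC4 declines with DEX and EGF+DEX alike, ARRDC2 stands higher with DEX, and ARRDC1 stays between 7.64 and 7.97.

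**Figure D4:**
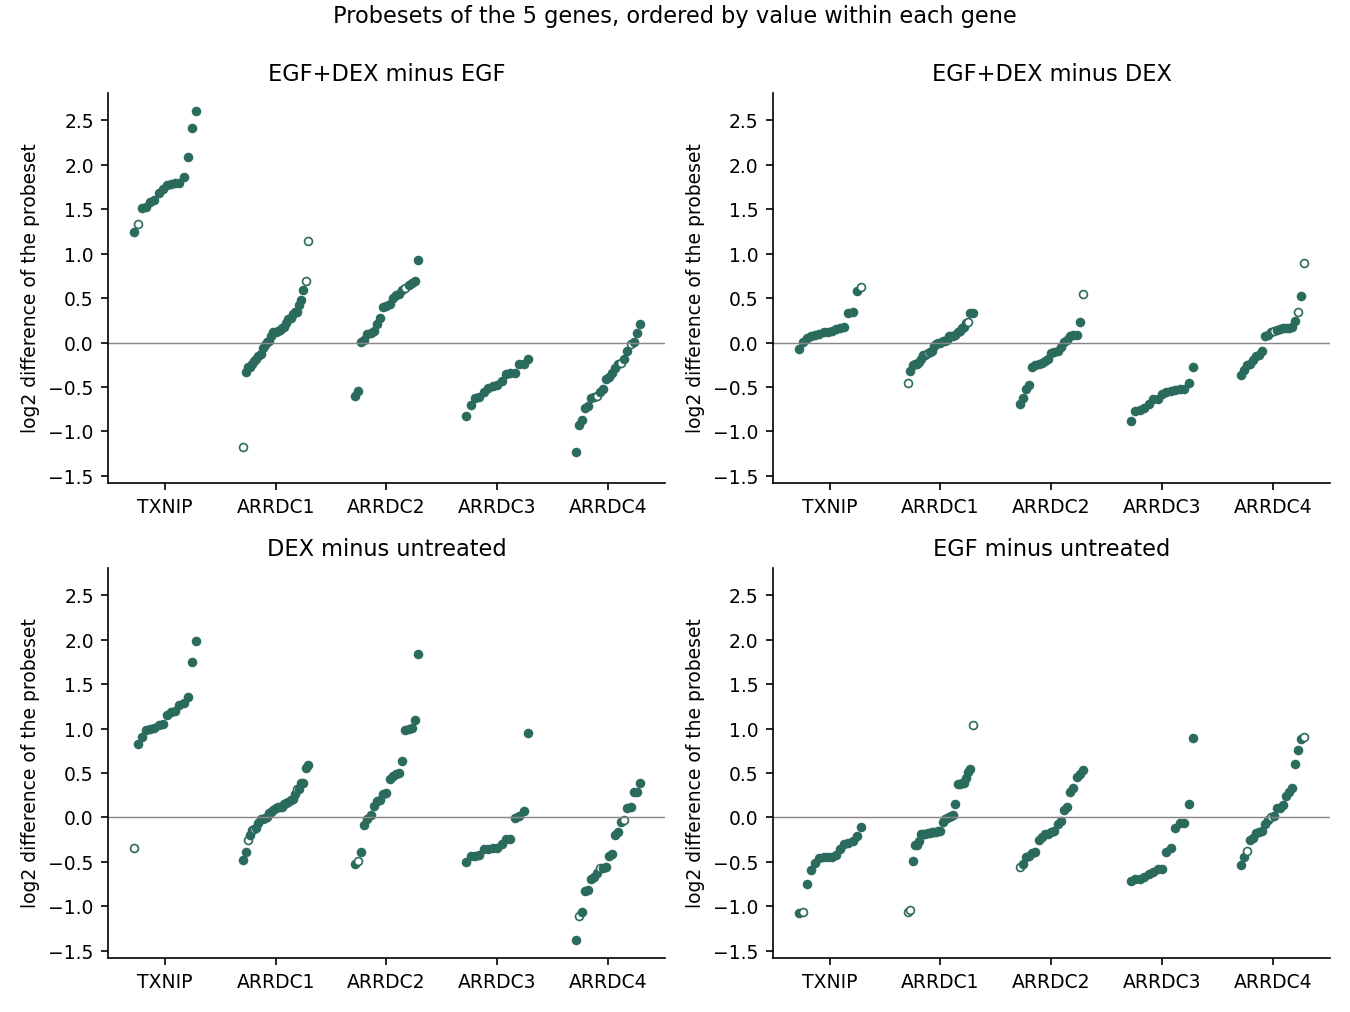
Difference of each probeset of the 5 genes between treatment means (log2 scale) in 4 comparisons, ordered by value within each gene, with filled points above the background and open points below it. All 15 bright TXNIP probesets lie above 0 in EGF+DEX minus EGF and in DEX minus untreated, and all 15 ARRDC3 probesets lie below 0 in both EGF+DEX comparisons.

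A gene was called in a comparison when limma's Benjamini-Hochberg adjusted p over all 16600 genes was below 0.05 and the difference reached 1.5-fold. For EGF and DEX the test was an F-test over the 5 times, with the fold and the direction taken at the time of the largest difference. For EGF+DEX it was a test of the mean over the times. The calls are given as a description beside the share of all genes, since the family was selected on these comparisons. With EGF, TXNIP was called lower, beside 0.157% of all genes lower and 0.572% higher. With DEX, TXNIP was called higher, beside 1.62% of all genes, and ARRDC3 and ARRDC4 lower, beside 1.92%. In EGF+DEX against EGF, TXNIP was called higher, beside 0.367% of all genes higher and 0.386% lower. In EGF+DEX against DEX, ARRDC3 was called lower, beside 0.0723% of all genes lower and 0.289% higher.

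When each of the 26 arrays was left out in turn, TXNIP was called in 26 of 26 fits for DEX and likewise for EGF+DEX against EGF. ARRDC3 was called in 26 of 26 for EGF+DEX against DEX. Without the 240 min DEX array its difference there was -0.59, close to the 1.5-fold minimum (0.585 on the log2 scale). The EGF call of TXNIP was made in 20 of 26 and was lost without either untreated array, either EGF array at 40 min, or the EGF array at 120 or at 240 min. The DEX call of ARRDC4 was made in 25 of 26, lost without the 240 min DEX array. The DEX call of ARRDC3 was made in 12 of 26 and was also lost with the replicate number as a block, without a brightness filter and with probeset means. Its direction rests on 60 min (-0.61 ± 0.17), since at 240 min the sign was opposite.

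For the 4 members whose 16 group means spanned at least 1.5-fold, all but ARRDC1, the genes that followed them most closely were sought among 9118 genes with at least that span. These correlations share arrays and treatments and are given without a test. TXNIP ran with SGK1, a kinase induced by glucocorticoids (r = 0.97), with RGS2, a regulator of G protein signalling (0.96), and with the metallothionein MT1X, the caveolar protein SDPR and TSC22D3, or GILZ (0.95 each). It ran opposite to COTL1, an actin-binding protein (-0.94), HDHD3 (-0.90), and LYSMD2, the connexin GJC1 and the carbonic anhydrase CA13 (-0.89 each). SGK1, RGS2 and TSC22D3 are also on the list of glucocorticoid targets.

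The other members kept different company. ARRDC2 ran with MST150 (0.94), FLRT3 (0.90) and, at 0.89 each, PDK4, which inhibits pyruvate dehydrogenase, VSTM2L and KLHDC4, and opposite to the homeobox factor HOXA9 (-0.96), the kinase PLK2 (-0.95), TFAP2A (-0.92), INTS9 and MAP3K14 (-0.91 each). ARRDC3 ran with KCTD7 and the deubiquitinase OTUD7B (0.91 each), CYP2R1, a vitamin D hydroxylase (0.89), DCTN3 and CCDC28A (0.86 each), and opposite to TOP1P1 (-0.86), ANGPTL4, an inhibitor of lipoprotein lipase (-0.84), WNT3A (-0.83), GPR75 and PKDREJ (-0.82 each). ARRDC4 ran with the phospholipid flippase ATP8B1 and ZNF335 (0.96 each), ZSCAN29, GALNT6 and LASP1 (0.95 each), and opposite to CYP4B1 (-0.93), LAX1 (-0.92), COPS8 (-0.90), TCEA3 and KDR (-0.89 each). Among the members themselves, the group means of TXNIP correlated at 0.78 with ARRDC2, at -0.63 with ARRDC4, at 0.61 with ARRDC1 and at -0.30 with ARRDC3.

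The partners of the family were taken from 6 lists of its regulators, ligases, cargo and pathways. Of 11 regulators of the MondoA and E-box network, 0 were called in each of the 4 comparisons, and the list had a median difference of -0.07 with DEX, beside -0.06 over all genes. Of the arrestin-fold relatives, which include the beta-arrestins and the retromer subunits, 0 of 8 were called in each comparison.

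Among the NEDD4 family ligases, the enzymes that alpha-arrestins recruit, and their adaptors, 1 of 11 genes rose with DEX and none fell. NEDD4 itself lay between 7.61 and 8.87 with DEX (median 8.08), against 7.53 and 7.80 in untreated cells, with a mean difference of 0.65 ± 0.12 (SE) (limma, adjusted p = 0.00141). Its difference was 0.05 ± 0.15 at 20 min and 1.20 ± 0.18 at 240 min. The call was made whichever array was left out. The median of the list was -0.06, the same as over all genes.

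In the thioredoxin system, on which TXNIP acts, 2 of 20 genes fell with DEX and none rose, and the median was -0.13. TXNRD1, the cytosolic thioredoxin reductase, lay between 7.86 and 8.86 with DEX, against 8.86 and 8.90 in untreated cells, and fell by 0.57 ± 0.12 on average (limma, adjusted p = 0.00506). It fell by 0.95 ± 0.18 at 120 min and 1.02 ± 0.18 at 240 min. SRXN1, which repairs oxidised peroxiredoxins, fell by 0.55 ± 0.13 (adjusted p = 0.0347). This call was lost in 10 of 26 fits that left out an array (adjusted p up to 0.312, without the 240 min DEX array). It was also lost without a brightness filter and with probeset means. In EGF+DEX against EGF, TXNRD1 differed by -0.55 ± 0.08 (limma, adjusted p = 0.000347) and SRXN1 by -0.42 ± 0.09 (adjusted p = 0.00612), both past the p threshold but short of the 1.5-fold minimum, which applies to the mean in this comparison and to the time of the largest difference for DEX. Without a fold minimum 6 of the 20 genes passed there, beside 3374 of all 16600 genes, and the difference in share was not tested. With it, no gene of the list was called with EGF or in either EGF+DEX comparison, with medians of 0.01, -0.18 against EGF and -0.02 against DEX, beside -0.01, -0.05 and 0.00 over all genes.

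The list of glucose transport, which TXNIP and ARRDC4 restrain, and of glucose phosphorylation had 1 of 19 genes higher with EGF and 2 of 19 lower with DEX. SLC2A3, the glucose transporter GLUT3, lay between 6.21 and 7.58 with EGF (median 7.22), against 6.31 and 6.65 in untreated cells, and rose by 0.70 ± 0.13 on average (limma, adjusted p = 0.00205). Its difference was -0.05 ± 0.16 at 20 min and 1.10 ± 0.19 at 120 min, and the call was lost without a brightness filter (adjusted p = 0.0629). PFKFB3, which makes the activator of phosphofructokinase, fell by 0.41 ± 0.12 with DEX (limma, adjusted p = 0.00392). With EGF+DEX it stood 0.59 ± 0.08 below its level with EGF (adjusted p = 0.000131). EGF alone gave it a mean difference of 0.41 ± 0.12 from untreated cells, which was not called. Its median was 7.20 with EGF+DEX and 7.23 in untreated cells. The DEX call of PFKFB3 was lost without the 240 min DEX array (-0.26, adjusted p = 0.0594), and its EGF+DEX value missed 1.5-fold in 9 of 26 such fits, without a brightness filter (-0.58), with quantile normalization (-0.56) and with probeset means (-0.51). SLC2A1, the glucose transporter GLUT1 and a cargo of TXNIP, fell by 0.40 ± 0.11 with DEX (adjusted p = 0.0434), a call lost in 14 of 26 fits. The call was also lost without a brightness filter, with quantile normalization and with probeset means. All 8 DEX arrays (10.63 to 11.42) and all 8 EGF arrays (11.01 to 11.36) lay below both untreated arrays (11.48 each). EGF alone made a mean difference of -0.29 ± 0.11, which was not called.

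The list of cargo and partners had 1 of 17 genes higher and 2 lower with DEX, and 1 of 17 lower in EGF+DEX against EGF. PRKAG2, a regulatory subunit of the energy sensor AMPK, which phosphorylates TXNIP, lay between 6.86 and 8.32 with DEX, against 6.76 and 6.98 in untreated cells, and rose by 0.75 ± 0.11 on average (limma, adjusted p = 0.000125) and by 1.45 ± 0.17 at 240 min. CDKN1B, the cell cycle inhibitor p27, which TXNIP protects from degradation, lay between 7.45 and 8.34 with EGF+DEX, against 7.91 and 8.73 with EGF, and fell by 0.67 ± 0.09 (adjusted p = 0.000135). With DEX, CDKN1B fell by 0.52 ± 0.13 (adjusted p = 0.0286), a call lost in 6 of 26 fits. That DEX call was also lost with the stricter brightness filter and with probeset means. SLC11A2, a metal transporter handled by ARRDC1 and ARRDC4, fell by 0.44 ± 0.12 with DEX (adjusted p = 0.0434). This call was lost in 14 of 26 fits, and also without a brightness filter. No gene of the 6 lists was called in EGF+DEX against DEX. CDKN1B differed there by -0.52 ± 0.09 (limma, adjusted p = 0.00293), past the p threshold but short of the 1.5-fold minimum. NOTCH1, PRKAB2 and MSRB1 also passed the p threshold there, with smaller negative differences. ARRDC5, a listed arrestin-fold relative, had too few bright probesets to be tested.

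**Figure D5:**
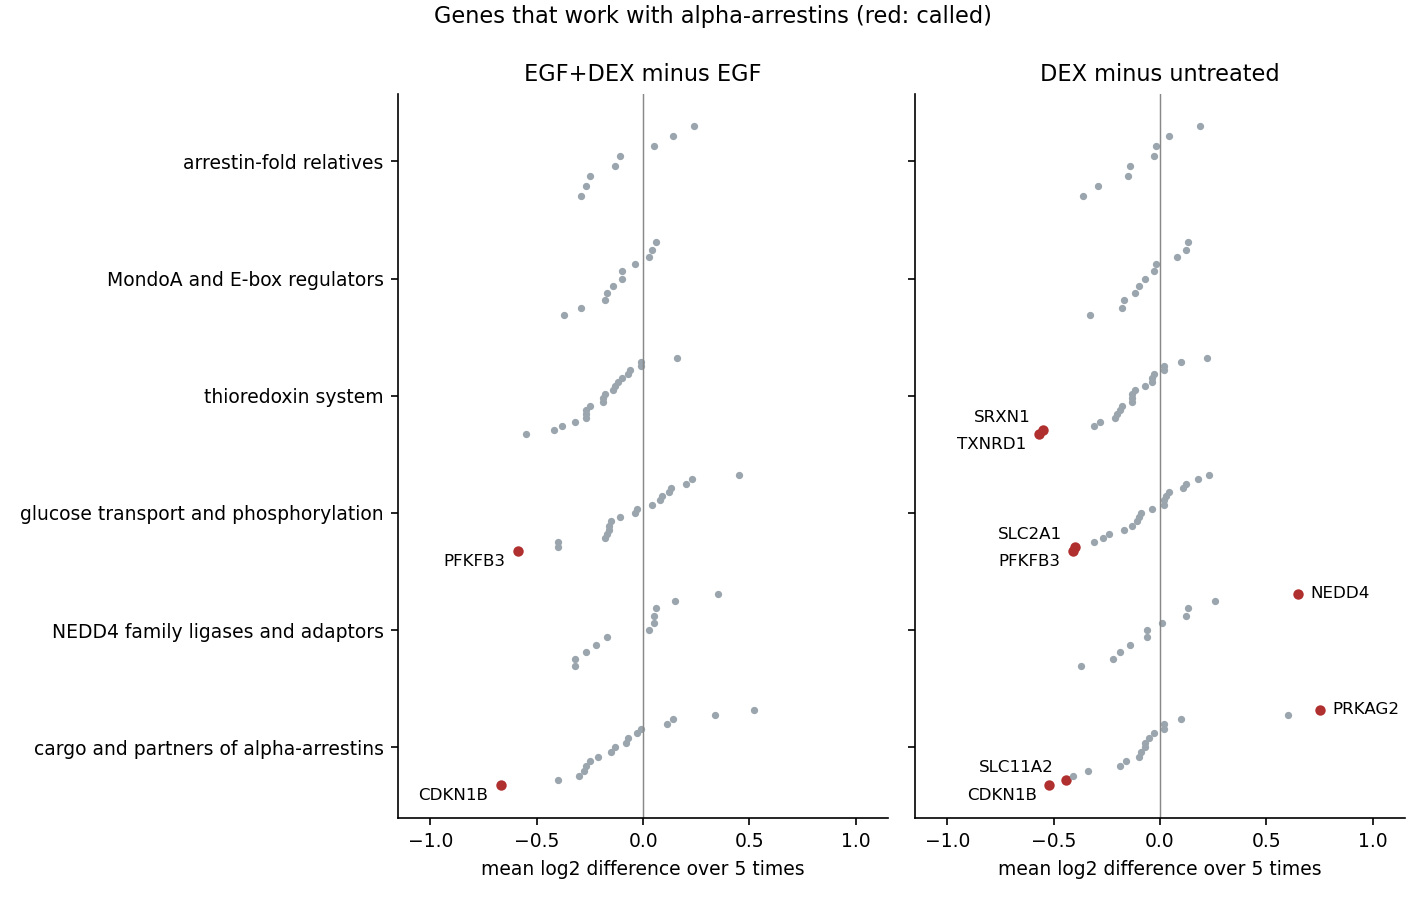
Mean log2 difference over the 5 times for each tested gene of 6 lists of partners of the family, in EGF+DEX minus EGF and in DEX minus untreated cells, with called genes in red and named. NEDD4 (0.65) and PRKAG2 (0.75) stand to the right with DEX, and TXNRD1 (-0.57), SRXN1 (-0.55) and CDKN1B (-0.52) to the left.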

How the data were processed

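RNA of MCF10A cells was hybridised to Affymetrix human exon arrays, which read each exon by a small group of probes, a probeset. The authors ran the Affymetrix Expression Console, and the deposited intensity values are linear, for 844005 probesets on 26 arrays. Its version, summary method and background correction: not given in the sources used here. The number of arrays limits the precision. Array quartiles lay within 0.0971 of each other, so the authors' normalization was kept, and log2 was taken of the deposited values.

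Probesets with 1 platform symbol (354421) and a mean above the median of those with none (4.65) were summarised by Tukey's median polish for genes with at least 3 of them. A group-means model of 16 groups was fitted to all genes with limma 3.58.1 in R 4.3.3, on values prepared with matrixStats 1.5.0. Plots used Python 3.11.15 and matplotlib 3.10.9. The procedure was tested on simulated data. The members and the gene lists were chosen with earlier results of these data known. Named were all members, all called genes of a list where 5 or fewer, and the 5 genes most and least like each member whose group means spanned 1.5-fold (all but ARRDC1). The alternatives tried were the replicate number as a block, a brightness filter that was stricter (5.97) or absent, quantile normalization between arrays, probeset means, limma with trend and robust options, no fold minimum, and the omission of each array in turn, with filter and gene values kept.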

Additional observations from a re-analysis of the deposited data

Results flagged for a closer look

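TXNIP was singled out because EGF and DEX moved it in opposite directions on every array. Its mean difference from untreated cells was 1.20 with DEX, with 8 of 8 arrays above both untreated arrays, and -0.51 with EGF, with 8 of 8 arrays below both. The difference between these 2 effects was not tested, and both rest on the same 2 untreated arrays.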

How the results depend on the processing

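No difference called for a member changed sign under any alternative. With a stricter brightness filter ARRDC4 moved to -0.31 for DEX and to -0.38 for EGF+DEX against EGF, and the cause was not tested. Without a fold minimum, 3374 genes passed in EGF+DEX against EGF and 521 in EGF+DEX against DEX, in place of 125 and 60. Leaving out 1 array at a time gave 66 to 139 called genes for EGF (fewest without untreated replicate 2), 209 to 615 for DEX (fewest without the 240 min DEX array) and 38 to 69 for EGF+DEX against DEX (fewest without the same array). For ARRDC4 it gave -0.51 to -0.36 with DEX and -0.52 to -0.36 in EGF+DEX against EGF, and for TXNIP 1.69 to 1.90 in EGF+DEX against EGF, with the smaller size of both EGF+DEX values reached without the 120 min EGF array. Same-numbered arrays showed little shared deviation (r between -0.20 and 0.31 over 45 pairs of groups, median 0.03). The labels do not say whether the numbers pair the samples, and these correlations of normalized values cannot decide it. With a replicate block 133, 627, 125 and 60 genes were called for EGF, DEX, EGF+DEX against EGF and EGF+DEX against DEX, in place of 121, 588, 125 and 60. The DEX call of ARRDC3 was lost with the block, without a brightness filter and with probeset means, and ARRDC2 was called higher with DEX under the stricter filter and without either 40 min EGF array. For the named pathway genes 286 calls stood and 66 were lost over these alternatives. Late values rest on 1 array for each treatment and time.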
